A study of Mus musculus with 9 samples.

Results

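S1pr1, S1pr4, S1pr5, Klf2 and Cd69 make up a small set of genes that bear on how lymphocytes leave lymphoid tissue. They were taken by name, with every probe set annotated to a single one of these symbols. All 5 genes were found, each with 1 probe set, among 18193 genes with a single-symbol probe set, and all 5 were among the 10916 genes bright enough to be tested. The study sorted interferon-producing killer dendritic cells (IKDC), natural killer cells (NK) and conventional dendritic cells (CDC) from BALB/c mice that were naive and 6 to 8 weeks old, and hybridised their RNA to 9 Affymetrix arrays. Each cell type had 1 array from lymph node (LN) and 2 arrays from spleen, numbered 1 and 2. The labels name no treatment and call all cells freshly isolated. The surface markers used for the sort and the number of mice behind each array are not given in the sources used here.

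Sphingosine-1-phosphate (S1P) is a lipid that is abundant in blood and lymph and scarce inside lymphoid tissue, and lymphocytes follow this gradient out of the tissue through G protein-coupled receptors. S1PR1, the product of S1pr1, is the exit receptor of T and B cells, S1PR5 serves NK cells in the mouse, and S1PR4 is found on haematopoietic cells. KLF2 is a zinc finger transcription factor that keeps S1pr1 transcribed in resting lymphocytes, and CD69 is an early activation antigen that binds S1PR1 and removes it from the cell surface.

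S1pr4 and S1pr5 are the receptor genes that moved together across the cell types, so their promoters are shown. RefSeq (build GRCm38.p6) gave the promoter of 3 of the 5 genes, from 250 bases before to 50 bases after the start of the gene. The sequences run in the direction of the gene, and capitals mark CACCC, the core bound by KLF proteins, or its reverse complement GGGTG.
S1pr4 (chr10:81500088-81500387, minus strand): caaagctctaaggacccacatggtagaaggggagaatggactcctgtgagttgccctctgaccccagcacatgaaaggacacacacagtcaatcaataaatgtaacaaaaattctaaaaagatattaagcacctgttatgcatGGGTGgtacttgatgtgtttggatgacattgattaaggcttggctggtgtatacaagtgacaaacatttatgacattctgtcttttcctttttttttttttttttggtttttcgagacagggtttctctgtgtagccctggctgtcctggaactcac
S1pr5 (chr9:21248394-21248693, minus strand): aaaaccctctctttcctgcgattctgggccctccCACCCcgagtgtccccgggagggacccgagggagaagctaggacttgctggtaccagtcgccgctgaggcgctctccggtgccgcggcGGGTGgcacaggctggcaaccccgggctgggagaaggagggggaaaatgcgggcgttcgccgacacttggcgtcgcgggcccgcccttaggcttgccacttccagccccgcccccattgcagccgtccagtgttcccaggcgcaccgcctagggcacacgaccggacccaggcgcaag
The S1pr4 window holds 1 match, which begins 107 bases before the start. The S1pr5 window holds 2, which begin 216 and 128 bases before it. A match on either strand was present in 57.5% of all 32851 promoters of this length, so these letters do not set the pair apart. GGTGTGA, a T-box core, was present in 3.98% of promoters and TGANTCA, an AP-1 core, in 7.81%. No window of S1pr4, S1pr5 or Klf2 held either of them on any strand.

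The array intensities were scaled by the authors, with a median between 23.4 and 41.3 on the 9 arrays. Levels below are log2 normalized intensities, differences are on the log2 scale, and a level under 5.31, the filter level, is near background. Of the NK markers fixed for the check of the labels, 6 of 7 were measured, and their summed intensity was 19532 to 23492 on IKDC arrays, 24207 to 41424 on NK arrays and 920 to 1710 on CDC arrays. For all 7 CDC markers the sums were 4121 to 6790 on IKDC arrays, 410 to 5072 on NK arrays and 13726 to 21416 on CDC arrays. The IKDC sums rest mainly on Itgax (11.03 and 11.24 on the spleen IKDC arrays) and H2-Aa (12.01 and 10.90). Flt3, Zbtb46, Cd86, Ciita and Batf3 were at 4.87 to 6.70 there, against 8.63 to 11.25 on the spleen CDC arrays. On the lymph node IKDC array Flt3 was at 8.69. Spleen NK array 1 had the highest CDC marker sum of the NK arrays and held Itgax at 11.32 and H2-Aa at 10.89, against 7.27 and 6.62 on spleen NK array 2, with Flt3 at 5.61 and Zbtb46 at 4.86. The lymph node IKDC array stood apart from the other IKDC arrays in plasmacytoid DC markers, of which all 6 were measured. Their summed intensity was 13355 on that array, against 4356 and 3669 on the spleen IKDC arrays. T cell markers (7 of 7 measured) summed to 2368 on it, against 1384 and 2274 on the spleen IKDC arrays, with Cd8b1 and Cd4 higher there (8.78 and 9.30) and Cd3e and Cd28 lower (4.19 and 9.46) than on either spleen IKDC array. The highest T cell sum, 2800, was on the lymph node NK array, against 1377 and 1074 on the spleen NK arrays. The spleen arrays also divided by number in Xist, a transcript made from inactive X chromosomes, which was at 6.02 to 6.36 on arrays 1 and at 11.43 to 12.49 on arrays 2 and the lymph node arrays. Eif2s3y went the opposite way, at 8.84 to 9.40 on arrays 1 and at 2.76 to 4.28 on arrays 2 and the lymph node arrays.

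**Figure D1:**
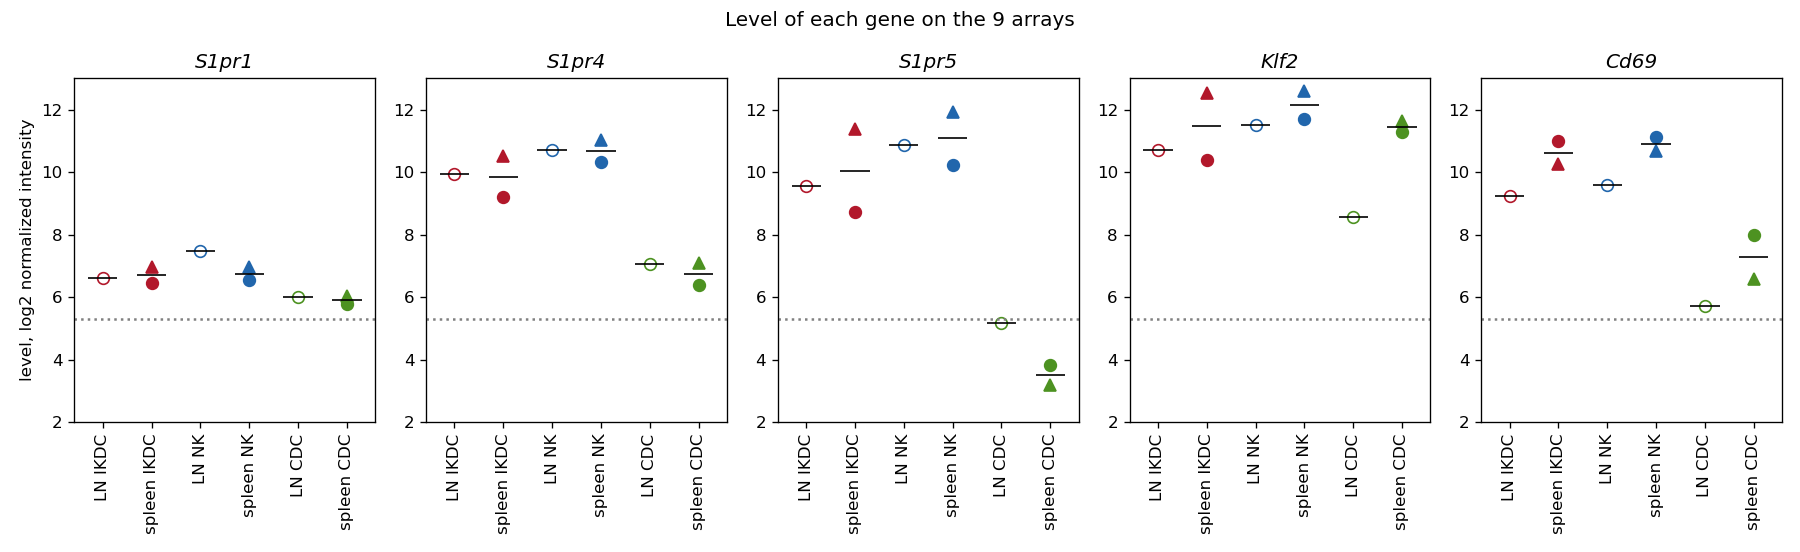
Level of each gene (log2 normalized intensity) on the 9 arrays, by organ and cell type. Open symbols are lymph node arrays, filled circles spleen arrays 1, filled triangles spleen arrays 2, bars group means, and the dotted line the filter level of 5.31. S1pr1, S1pr4, S1pr5 and Cd69 lie higher on every IKDC and NK array than on any CDC array, S1pr1 by a narrow margin. The same holds for 12.7% of tested genes. Levels may be compared between arrays within a panel, not between panels.

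S1pr5 was the gene that separated the cell types most. It had a deposited intensity of 716 on the lymph node IKDC array and of 408 and 2217 on the spleen IKDC arrays. On the NK arrays it had 1801 in lymph node and 1272 and 4047 in spleen. On the CDC arrays it had 37.0 in lymph node and 7.13 and 2.60 in spleen. Every IKDC and NK array lay far above every CDC array, which were near background. Its level was 10.05 ± 1.87 in spleen IKDC and 3.50 ± 0.45 in spleen CDC (SD, n = 2 each), and 11.08 ± 1.20 in spleen NK. Against the filter level, S1pr5 was at least 26.7-fold higher in IKDC than in CDC (difference 6.54 ± 0.92 SE, limma adjusted p = 0.00717) and at least 54.6-fold higher in NK than in CDC (difference 7.58 ± 0.92, limma adjusted p = 0.00342). In sorted bulk samples, fewer expressing cells and less RNA per cell cannot be told apart.

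S1pr4 followed the same division. Its intensity was 934 on the lymph node IKDC array and 572 and 1455 on the spleen IKDC arrays. The NK arrays had 1609 in lymph node and 1342 and 2083 in spleen, and the CDC arrays 134 in lymph node and 71.7 and 132 in spleen. Here too the CDC arrays did not overlap with the others. S1pr4 was at 9.86 ± 0.94 in spleen IKDC and 6.75 ± 0.49 in spleen CDC (SD, n = 2 each). The difference of 3.11 ± 0.51 (SE) is 8.65-fold, with limma adjusted p = 0.0132. It was at 10.67 ± 0.51 in spleen NK, 15.2-fold above spleen CDC (3.93 ± 0.51, limma adjusted p = 0.00446).

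Cd69, the antagonist of S1PR1 on the cell surface, was high in the same cells. Its intensity was 585 on the lymph node IKDC array and 2069 and 1242 on the spleen IKDC arrays. The NK arrays had 741 in lymph node and 2464 and 1634 in spleen, and the CDC arrays 54.8 in lymph node and 234 and 90.8 in spleen. The lowest IKDC array thus lay above the highest CDC array. The level was 10.63 ± 0.51 in spleen IKDC and 7.28 ± 0.99 in spleen CDC (SD, n = 2 each). The difference of 3.35 ± 0.51 (SE) is 10.2-fold, with limma adjusted p = 0.00961. In spleen NK it was 10.91 ± 0.32, 12.4-fold above CDC (3.63 ± 0.51, limma adjusted p = 0.00568).

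S1pr1 and Klf2 did not pass the test in these comparisons. S1pr1 had an intensity of 102 on the lymph node IKDC array and of 81.8 and 113 on the spleen IKDC arrays, with 179 on the lymph node NK array and 77.9 and 114 on the spleen NK arrays. On the CDC arrays it had 67.5 in lymph node and 44.0 and 60.01 in spleen. All CDC arrays were below all IKDC and NK arrays, by a narrow margin, as they were for S1pr4, S1pr5 and Cd69 by wider ones. Such a division was found in 12.7% of tested genes. S1pr1 differed by 0.79 ± 0.34 between spleen IKDC and CDC (95% interval -0.024 to 1.61, limma adjusted p = 0.226) and by 0.84 ± 0.34 between spleen NK and CDC (0.026 to 1.65, limma adjusted p = 0.179). In a model that added organ to cell type over all 9 arrays, NK exceeded CDC by 1.05 ± 0.28 (limma adjusted p = 0.0280).

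Klf2 was bright in all 3 cell types of the spleen. Its intensity was 1361 and 3836 in spleen IKDC, 3721 and 7106 in spleen NK, and 2807 and 3205 in spleen CDC. The spleen IKDC arrays lay on either side of the CDC arrays. The level was 11.46 ± 1.52 in spleen IKDC and 11.46 ± 0.25 in spleen CDC (SD, n = 2 each), a difference of 0.0038 ± 0.68 (95% interval -1.64 to 1.64, limma adjusted p = 0.997). The sign of this value was negative when the deposited scaling was kept (-0.39) and when arrays were brought to a common 75th percentile (-0.42). Between spleen NK, at 12.14 ± 0.62, and CDC the difference was 0.69 ± 0.68 (limma adjusted p = 0.615).

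Of the 5 genes, 3 were thus higher in spleen IKDC than in spleen CDC, where 4.75% of all tested genes were called higher (10.3% in either direction), and the same 3 were higher in spleen NK than in CDC, where 6.54% were (13.5% in either direction). These comparisons share the CDC arrays. The arrays did not overlap for 4 of the 5 genes between IKDC and CDC (25.4% of tested genes did not overlap, with IKDC higher) and for 5 of 5 between NK and CDC (32.1%). With the replicate number as a block, limma called 1904 genes in place of 1129 between IKDC and CDC, and 2304 in place of 1475 between NK and CDC, and S1pr4, S1pr5 and Cd69 were the members called with the block too. All rests on few arrays. Without spleen CDC array 1, adjusted p between IKDC and CDC was 0.0968 for S1pr4 and 0.051 for S1pr5, and without spleen CDC array 2 it was 0.0671 and 0.0756, so that Cd69 alone was called. Without spleen NK array 1, Cd69 had adjusted p = 0.0505 between NK and CDC.

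**Figure D2:**
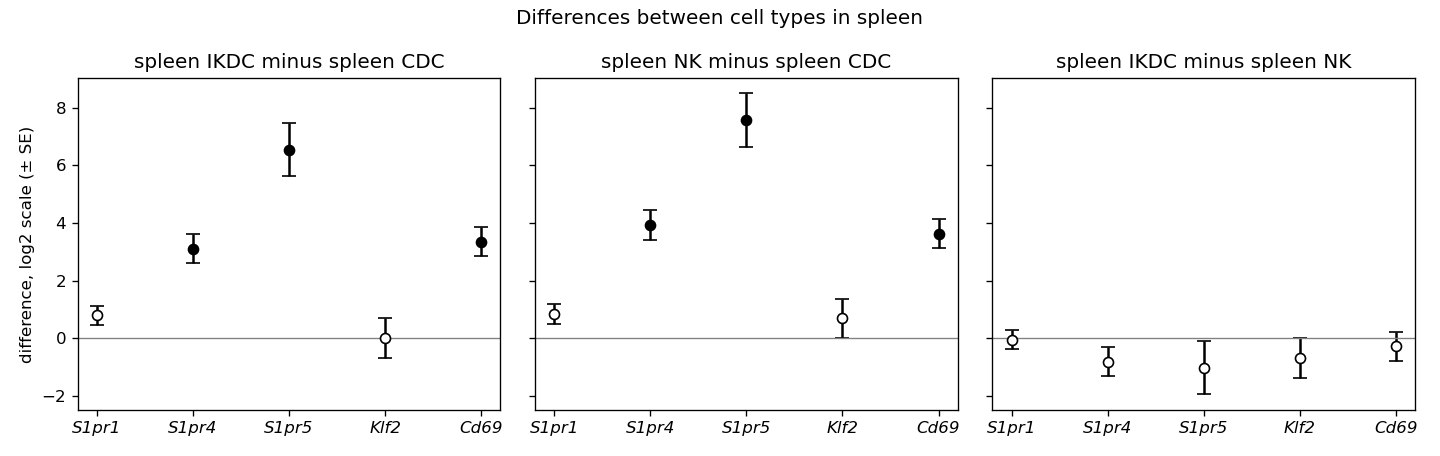
Differences between cell types in spleen on the log2 scale, with bars of ± 1 SE from limma. Filled symbols have an adjusted p under 0.05. S1pr4, S1pr5 and Cd69 are filled in IKDC minus CDC and in NK minus CDC, and no gene is filled in IKDC minus NK.

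Between IKDC and NK, no member was called. In spleen, S1pr4 differed by -0.81 ± 0.51 (95% interval -2.05 to 0.42, limma adjusted p = 0.865) and S1pr5 by -1.03 ± 0.92 (-3.25 to 1.19, limma adjusted p = 0.878). Klf2 differed by -0.68 ± 0.68 (-2.32 to 0.96), Cd69 by -0.28 ± 0.51 (-1.50 to 0.94) and S1pr1 by -0.050 ± 0.34 (-0.86 to 0.76). The intervals include differences of over 2 log2 units for S1pr4, S1pr5 and Klf2, so the arrays do not show that IKDC and NK are alike in these genes. They come from the fit without the replicate block. With the block the SE was smaller, at 0.25 for S1pr4, 0.39 for Klf2 and 0.69 for S1pr5, and limma adjusted p was 0.356, 0.524 and 0.576. Limma called 0 of 5 members here and 0% of tested genes, 0 members had an unadjusted p under 0.05, and 598 of all 10916 genes did.

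The sign was nevertheless the same in every array pair on the normalized scale. Array pairs of 3 kinds allow IKDC to be set against NK, which are spleen arrays 1, spleen arrays 2 and the lymph node arrays, and all 15 differences of the 5 genes were negative. A gene below NK in all 3 pairs was no rarity, as 17.1% of tested genes were. Spleen NK array 1 held Itgax (11.32) and H2-Aa (10.89) near the IKDC arrays, which were at 10.88 to 11.24 and 10.90 to 12.01. Spleen NK array 2 held them at 7.27 and 6.62. The part of this in the differences between arrays 1 was not tested. S1pr5 differed by -1.50 between arrays 1, by -0.56 between arrays 2 and by -1.33 between the lymph node arrays. S1pr4 differed by -1.12, -0.51 and -0.78 in the same pairs. Neither gene passed the test, and their spleen arrays overlapped between IKDC and NK. Without spleen IKDC array 1 the spleen difference was 0.29 for S1pr5, 0.39 for Klf2 and 0.21 for S1pr1. Without spleen IKDC array 2 it was 0.076 for Cd69. That of S1pr4 stayed negative whichever spleen array was left out (-1.47 to -0.15). Klf2 differed by -1.32, -0.049 and -0.82, and Cd69 by -0.15, -0.41 and -0.33. The small Klf2 value between arrays 2 depends on the scaling, as it was -0.89 on the deposited scale and -0.93 with a common 75th percentile. S1pr1 differed by -0.098, -0.0012 and -0.86, and on the deposited scale the value for arrays 1 was 0.066, so that 14 of 15 differences were negative there. The lymph node IKDC array stood apart in plasmacytoid DC markers, with a sum of 13355 against 4356 and 3669 on the spleen IKDC arrays. The lymph node NK array stood apart in T cell markers, with 2800 against 1377 and 1074 on the spleen NK arrays. Its plasmacytoid DC sum, 2727, was below those of the spleen NK arrays (5729 and 6641). The T cell sum of the lymph node IKDC array, 2368, was near that of spleen IKDC array 2 (2274). The part of these markers in the lymph node values was not tested.

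**Figure D3:**
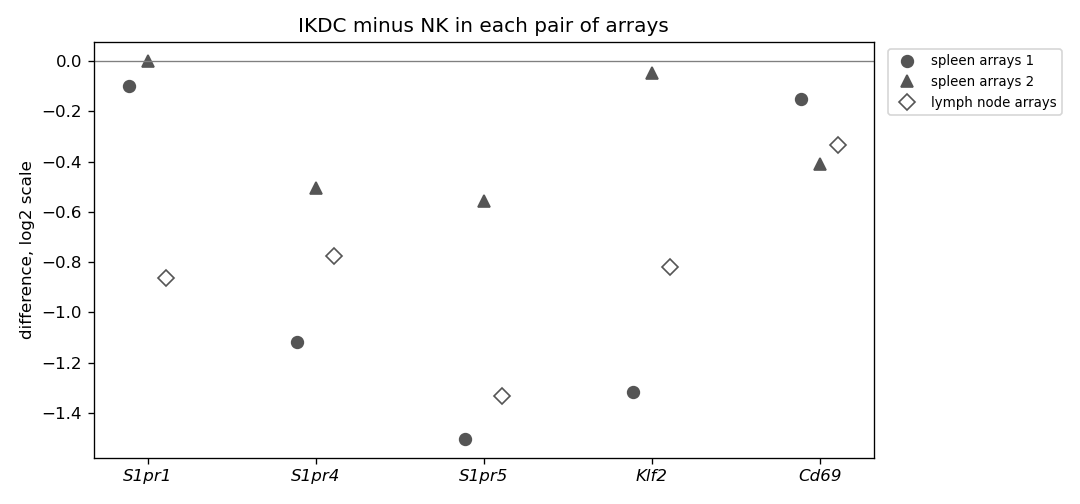
IKDC minus NK for each gene on the log2 scale, in spleen arrays 1 (circles), spleen arrays 2 (triangles) and the lymph node arrays (diamonds). All 15 points lie below 0, with those of S1pr1 and Klf2 for spleen arrays 2 within 0.05 of it.

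Lymph node and spleen were compared within each cell type, with the lone lymph node array assumed to vary like the spleen arrays. All lymph node arrays had the Xist and Eif2s3y pattern of spleen arrays 2. Against spleen arrays 1, organ and that split cannot be told apart. Cd69 was lower in lymph node than on both spleen arrays in every cell type, a pattern found in 10.4% of tested genes. Against spleen arrays 2 it differed by -1.03 in IKDC, -1.10 in NK and -0.88 in CDC. Against arrays 1 the values were -1.74, -1.56 and -2.27. From the spleen mean it differed by -1.39 ± 0.62 in IKDC (9.24 in lymph node, 10.63 ± 0.51 in spleen), by -1.33 ± 0.62 in NK (9.57 and 10.91 ± 0.32) and by -1.58 ± 0.62 in CDC (5.70 and 7.28 ± 0.99). None of these passed the test, with limma adjusted p = 0.757, 0.907 and 0.375. With 1 organ term for all cell types the difference was -1.43 ± 0.31 (limma adjusted p = 0.0781).

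Klf2 was lower on the lymph node CDC array than on any other array. Its intensity there was 350, against 2807 and 3205 on the spleen CDC arrays, a difference of -2.90 ± 0.83 or 7.48-fold (95% interval -4.91 to -0.89, unadjusted p = 0.0118, limma adjusted p = 0.264). In IKDC it was 1507 in lymph node against 1361 and 3836 in spleen (-0.77 ± 0.83), and in NK 2683 against 3721 and 7106 (-0.63 ± 0.83). The lymph node array thus lay between the spleen arrays in IKDC and below both in NK and CDC. The organ difference of Klf2 exceeded that of CDC by 2.13 ± 1.18 in IKDC and by 2.27 ± 1.18 in NK, and neither value passed the test (limma adjusted p = 0.990 and 0.998). Whether the low Klf2 belongs to lymph node CDC in particular is therefore not shown. The lymph node CDC array also differed in markers of other cells. Macrophage and monocyte markers summed to 21074 on it, against 12205 and 11998 on spleen CDC arrays 1 and 2. Plasmacytoid DC markers summed to 10722, against 7633 and 5869. The part of these markers in its Klf2 value was not tested.

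The receptor genes had no common direction between the organs. S1pr1 was at 7.46 on the lymph node NK array, its highest level of all, and at 6.53 and 6.96 on the spleen NK arrays (difference 0.72 ± 0.41, limma adjusted p = 0.931). T cell markers moved with it, with Cd3e at 8.15 on the lymph node NK array against 5.04 and 5.85 on the spleen NK arrays, beside the sums given above, and their part in this value was not tested. In IKDC it differed by -0.096 ± 0.41 and in CDC by 0.095 ± 0.41. S1pr4 differed by 0.088 ± 0.63 in IKDC, 0.051 ± 0.63 in NK and 0.32 ± 0.63 in CDC, all smaller than the SE. S1pr5 differed by -0.50 ± 1.13 in IKDC and -0.20 ± 1.13 in NK, and in CDC its level was under the filter level in both organs. In both IKDC and NK the lymph node level of S1pr4 and S1pr5 lay between the spleen arrays.

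Limma called 0 of 5 members between organs in each cell type, beside 0% of tested genes in IKDC, 0% in NK and 0.0275% in CDC. An unadjusted p under 0.05 was found for 0 members in IKDC, 0 in NK and 2 in CDC, and for 744, 628 and 1387 of all tested genes. The arrays of the organs did not overlap for 1 member in IKDC (Cd69, lower, as for 30.1% of tested genes), for 3 in NK (S1pr1 higher, as for 31.5%, with Klf2 and Cd69 lower, as for 39.9%) and for Klf2 and Cd69 in CDC (lower, as for 40.1%), where S1pr5 was near background in both organs and is given no direction. In the tests of whether cell types differ in their organ difference, limma called 0 members and 0% of tested genes in each, and 0 members had an unadjusted p under 0.05, beside 303 of all tested genes for IKDC minus NK, 615 for IKDC minus CDC and 583 for NK minus CDC.

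**Figure D4:**
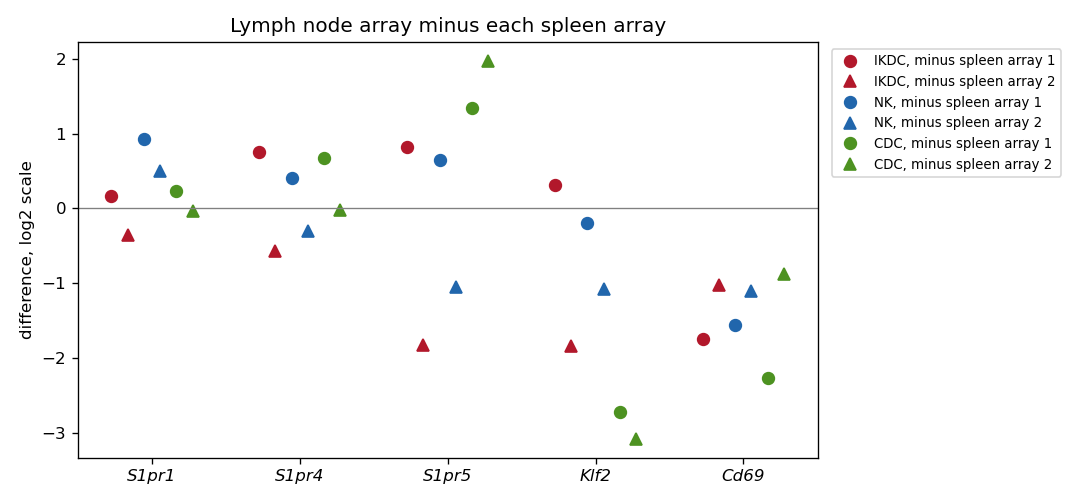
Lymph node array minus each spleen array of the same cell type on the log2 scale, with circles for spleen array 1 and triangles for spleen array 2. All 6 points of Cd69 lie below 0, both CDC points of Klf2 lie below -2.7, and the IKDC and NK points of S1pr4 and S1pr5 lie on both sides of 0. The CDC points of S1pr5 are differences between values near background.

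Cd69 is a gene of early activation, and the other genes of this class were set beside it between the organs. Of 14 tested members of this list, 10 were below both spleen arrays in all 3 cell types, as were 10.4% of all tested genes, and the median organ difference was -1.64 in IKDC, -1.23 in NK and -2.04 in CDC, against medians over all tested genes of 0.0091, -0.050 and -0.022. Only Nr4a1, an orphan nuclear receptor induced early after stimulation, was called, and only in CDC, at 7.94 in lymph node and 12.26 in spleen (difference -4.32 ± 0.28, limma adjusted p = 0.0271). It differed by -3.21 ± 0.28 in IKDC (limma adjusted p = 0.0591) and by -3.34 ± 0.28 in NK (limma adjusted p = 0.0676). Members also went the other way without passing the test, with Icos at 3.10 in NK and Myc at 1.19 in CDC. Genes of the type I interferon response, a stimulus that raises Cd69 in lymphocytes, went both ways. Their medians were 0.24, -0.051 and -0.32 in the 3 cell types, with 1 of 11 below both spleen arrays throughout. Cxcl10 was below both spleen arrays in IKDC and NK, while Mx1 and Usp18 were above both in all 3 cell types. The part of either list in the Cd69 difference was not tested.

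The spleen replicates differed from each other in the same way across cell types. Cd69 was lower on array 2 than on array 1 in IKDC (-0.72), NK (-0.46) and CDC (-1.40), as were 23.2% of tested genes. S1pr1 (0.52, 0.43 and 0.26), S1pr4 (1.33, 0.72 and 0.69) and Klf2 (2.15, 0.88 and 0.36) were higher on array 2 in IKDC, NK and CDC, as were 24% of tested genes. S1pr5 was higher on array 2 in IKDC (2.64) and NK (1.70), and near background on both CDC arrays. Cd69 thus moved against the receptor genes and Klf2 between the replicates. The direction was the same on the deposited scale and with a common 75th percentile. Over all tested genes the SD of this difference was also largest in IKDC, at 0.935, against 0.642 in NK and 0.590 in CDC. Proliferation markers, of which 4 of 5 were measured, summed to 4539 to 9014 on arrays 1 and 977 to 1430 on arrays 2. Endothelial markers (5 of 5 measured), from a cell type that carries S1pr1 and Klf2, summed to 160 to 209 on arrays 1 and 297 to 377 on arrays 2. Of these 5 markers, 2 to 3 were under the filter level on each array 1 and 1 on each array 2. The sums thus rest in part on values near background. Macrophage and monocyte markers (6 of 6 measured) summed to 6356 and 5044 on IKDC and NK arrays 2, against 2521 and 2031 on IKDC and NK arrays 1, and to 11998 and 12205 on CDC arrays 2 and 1. The part of these markers, and of the split in Xist and Eif2s3y, in the replicate difference was not tested.

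**Figure D5:**
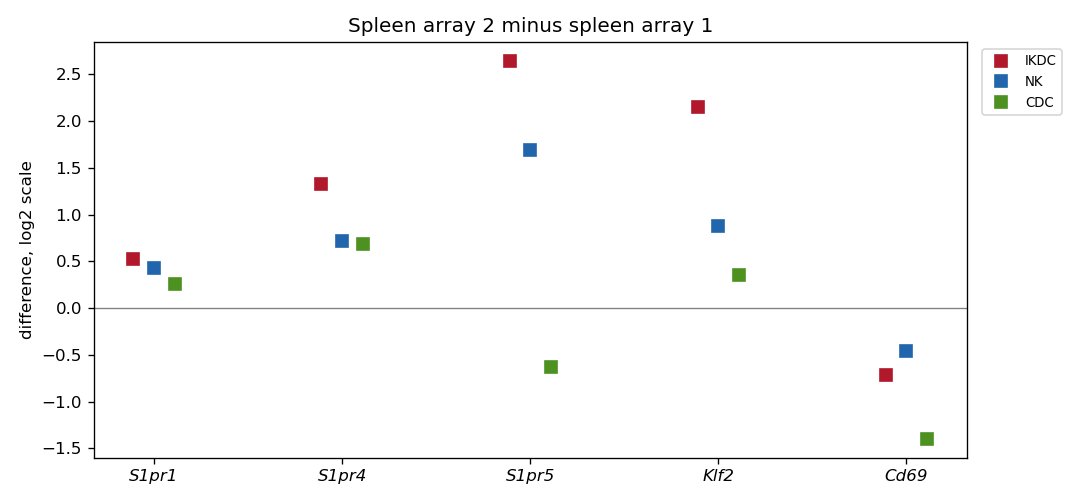
Spleen array 2 minus spleen array 1 for each gene and cell type on the log2 scale. The Cd69 squares lie below 0 in all 3 cell types, those of S1pr1, S1pr4 and Klf2 above 0, and S1pr5 is above 0 in IKDC and NK. The CDC point of S1pr5 is a difference between values near background.

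By level, the groups ran from lymph node NK through spleen NK, lymph node IKDC, spleen IKDC and lymph node CDC to spleen CDC for S1pr4. For S1pr5 they ran from spleen NK through lymph node NK, spleen IKDC to lymph node IKDC at 9.55, with CDC of both organs below the filter level of 5.31 and in no order. The single step of S1pr4 beyond the 95% interval of the spread was that between spleen IKDC and lymph node CDC, at 2.79, and no neighbours among the IKDC and NK groups differed beyond it in S1pr5. For Cd69 the order was spleen NK, spleen IKDC, lymph node NK, lymph node IKDC, spleen CDC and lymph node CDC, with steps beyond the interval between lymph node IKDC and spleen CDC (1.96) and between spleen and lymph node CDC (1.58, not called over all genes). For Klf2 it was spleen NK, lymph node NK, spleen IKDC, spleen CDC, lymph node IKDC and lymph node CDC, and for S1pr1 lymph node NK, spleen NK, spleen IKDC, lymph node IKDC, lymph node CDC and spleen CDC. No pair of neighbours differed beyond the interval in Klf2 or S1pr1.

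The genes most like each member in their levels over the 9 arrays were found by Pearson correlation, given as a description. The arrays are shared and fall into CDC on one side and IKDC and NK on the other, so r over the 6 IKDC and NK arrays is given as well. For S1pr5 these were Tpst2, a tyrosylprotein sulfotransferase (r = 0.993, and 0.914 without CDC), Tshz3 (0.993 and 0.949) and Spn, the sialoglycoprotein CD43 (0.990 and 0.945). For S1pr4 they were Oplah, which encodes 5-oxoprolinase (0.993 and 0.957), the ubiquitin ligase gene Rnf125 (0.989 and 0.910) and Tnfrsf18, the gene for GITR (0.988 and 0.899). S1pr4 and S1pr5 had different nearest genes, but the r values lay within 0.988 to 0.993, so the lists do not set them apart. For Cd69 they were Smap1, Rpa1 and Prkch (0.985, 0.984 and 0.983, and 0.890, 0.969 and 0.926 without CDC). For Klf2 they were Smurf2, Dnm2 and Stk17b (0.986, 0.984 and 0.967, and 0.978, 0.967 and 0.944), and for S1pr1 Nup50, Uba3 and Rbl2 (0.970, 0.966 and 0.961, and 0.962, 0.935 and 0.911).

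Of the S1P signalling list, 13 of 15 genes were tested, with 1 higher and 0 lower in spleen IKDC than in CDC and 2 higher and 0 lower in NK than in CDC, beside 4.75% and 6.54% of all tested genes called higher (median differences 0.23 and 0.21, against 0.037 and 0.059 over all tested genes). Rac2, a GTPase of the leukocyte cytoskeleton, was 2.31-fold higher in IKDC than in CDC (limma adjusted p = 0.0214) and 2.65-fold higher in NK (limma adjusted p = 0.0098). Arrb2, a beta-arrestin that takes part in receptor internalisation, was 2.59-fold higher in NK (limma adjusted p = 0.0144) and 1.94-fold higher in IKDC (limma adjusted p = 0.0613). S1pr2, whose product holds cells back through other G proteins, was at 7.72 in spleen IKDC and 6.30 in spleen CDC (1.42 ± 0.48, limma adjusted p = 0.131), and at 7.57 in spleen NK (1.27 ± 0.48 above CDC, limma adjusted p = 0.153). The mean of S1pr3 was under the filter level, so it was not tested, and its highest level was 5.32, on the lymph node IKDC array.

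Genes of S1P metabolism went both ways. Of 15 listed genes 12 were tested, with 1 higher and 2 lower in spleen IKDC than in CDC and likewise in NK, where 5.6% and 6.97% of all tested genes were called lower. Plpp1, a phosphatase of lipid phosphates that include S1P, was 6.91-fold lower in IKDC than in CDC (limma adjusted p = 0.00593) and 10.4-fold lower in NK (limma adjusted p = 0.00225). Asah1, the acid ceramidase that releases sphingosine, was 4.89-fold lower in IKDC (limma adjusted p = 0.00478) and 6.59-fold lower in NK (limma adjusted p = 0.00186). Cers4, a ceramide synthase, was 3.01-fold higher in IKDC (limma adjusted p = 0.0332) and 2.70-fold higher in NK (limma adjusted p = 0.0389). Sgpl1, the lyase that degrades S1P, was at 8.11 in spleen IKDC, 7.74 in spleen NK and 8.57 in spleen CDC and did not pass the test, and Sphk1, a kinase that makes S1P, was under the filter level on all 9 arrays.

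Regulators around KLF2 included transcription factors known from NK cells. All 16 genes measured of this list of 17 were tested, with 3 higher and 0 lower in spleen IKDC than in CDC and 4 higher and 1 lower in NK than in CDC, beside shares over all tested genes of 4.75% higher and 5.6% lower in IKDC and 6.54% higher and 6.97% lower in NK. Tbx21, the gene for T-bet, which S1pr5 requires in mouse NK cells, was at 11.45 in spleen IKDC, 11.52 in spleen NK and 7.58 in spleen CDC (14.6-fold, limma adjusted p = 0.00178 for IKDC, and 15.3-fold, limma adjusted p = 0.00111 for NK). Eomes, its relative and one of the NK markers of the label check, was 36.7-fold higher in IKDC than in CDC (limma adjusted p = 0.00278) and 41.8-fold higher in NK (limma adjusted p = 0.00163). Zeb2, a transcription factor of late NK maturation, was 4.85-fold higher in NK (limma adjusted p = 0.00331) and 2.00-fold higher in IKDC (limma adjusted p = 0.0730). Mef2c was 4.54-fold lower in NK (limma adjusted p = 0.00402) and 1.84-fold lower in IKDC (limma adjusted p = 0.108). Foxo1, which drives Klf2 in T cells, was at 9.96 in spleen IKDC and 8.57 in spleen CDC (2.62-fold higher, limma adjusted p = 0.0421) and at 9.53 in spleen NK (limma adjusted p = 0.109). Ccr7, the receptor for entry into lymph nodes and their T zone, was above both spleen arrays on the lymph node array in all 3 cell types, as were 9.35% of tested genes, at 6.88 in IKDC, 6.22 in NK and 9.17 in CDC, and did not pass the test in any comparison.

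Receptors and adhesion molecules of exit and retention were tested for 13 of 15 listed genes, with 2 higher and 1 lower in spleen IKDC than in CDC and 1 higher and 1 lower in NK. Over all tested genes 4.75% were higher and 5.6% lower in IKDC, and 6.54% higher and 6.97% lower in NK, so single calls in a list of this size are near the background. Itgal, the alpha chain of LFA-1, was 3.42-fold higher in IKDC than in CDC (limma adjusted p = 0.0152) and 3.55-fold higher in NK (limma adjusted p = 0.0109). Gpr183, an oxysterol receptor that positions cells in lymphoid tissue, was 2.61-fold lower in IKDC (limma adjusted p = 0.0401) and 3.34-fold lower in NK (limma adjusted p = 0.0143). Cxcr3, a receptor for interferon-induced chemokines, was 3.17-fold higher in IKDC (limma adjusted p = 0.0147). Early activation genes, tested for 14 of 15, gave 2 higher and 1 lower in IKDC than in CDC and 1 higher and 2 lower in NK, beside the same shares over all genes. Tnfaip3, an inhibitor of NF-kB signalling, was 2.52-fold higher in IKDC (limma adjusted p = 0.00748) and 2.83-fold higher in NK (limma adjusted p = 0.00394). Myc was 2.94-fold higher in IKDC (limma adjusted p = 0.0428) and 2.32-fold higher in NK (limma adjusted p = 0.0795). Egr2 was 4.30-fold lower in NK (limma adjusted p = 0.0269) and 2.65-fold lower in IKDC (limma adjusted p = 0.113). The rise of Cd69 in these cells was thus not shared by the list at large, which had medians of -0.13 in IKDC and -0.12 in NK. Of 11 tested interferon response genes, 2 were lower in IKDC and in NK, among them Usp18, a brake on interferon signalling, 2.48-fold (limma adjusted p = 0.0195) and 3.74-fold (limma adjusted p = 0.00407), and Mx1, 2.71-fold (limma adjusted p = 0.0158) and 2.38-fold (limma adjusted p = 0.0215). In no list was a member called between spleen IKDC and NK.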

How the data were processed

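Per the labels, 6 µg of RNA from TRIzol and RNeasy gave the biotinylated cRNA. The deposited values are linear signal intensities per probe set, which the authors had scaled so that the mean between the 2nd and 98th percentiles was 150 on all 9 arrays. The sources used here do not name the software. The 45037 probe sets other than 64 controls were offset by 6.49, the 20th percentile, log2 transformed and quantile normalized. Of them 34945 carried a single symbol in the platform annotation, 932 several and 9160 none. Each gene was represented by its brightest probe set, and genes were tested if their mean reached its 40th percentile, 5.31. Limma 3.58.1 (R 4.3.3, lmFit and eBayes with a trend) used 6 groups, with 3 residual and 3.44 prior degrees of freedom, all residual ones from spleen pairs. Two-sided p-values were adjusted by Benjamini and Hochberg over all tested genes with 0.05 as the threshold. These p-values reflect the spread among the arrays alone, and the number of arrays limits the precision. That spread is between spleen arrays 1 and 2, which also differ in Xist and Eif2s3y. It therefore holds that difference as well as any technical one. The fit was tested on simulated data. The labels do not say that array numbers mark shared mice or days, so the main fit has no block. Array differences by number correlated across genes at 0.412 to 0.529 between cell types. The 5 genes, all lists and the naming rule (the 3 genes most correlated with each member, up to 4 called genes with the largest differences per list, and 8 fixed genes) were chosen with earlier results of these data known. Alternatives covered scaling, offset, filter, probe set summary, trend, arrays in the fit, the block and leaving out each spleen array. Figures used Python 3.11.15 and matplotlib 3.10.9.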

Additional observations from a re-analysis of the deposited data

How the results depend on the processing

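S1pr4, S1pr5 and Cd69 kept their direction against CDC under all 18 alternatives, and no member was called between IKDC and NK or between organs under any. Leaving out a spleen array gave 1 to 3 members called between IKDC and CDC, 360 to 1399 genes there, 515 to 1916 between NK and CDC, 0 to 12 between organs in IKDC and 0 to 19 in CDC. With fewer arrays the spread has fewer degrees of freedom. S1pr1 was not tested with the 60th percentile filter, which it does not pass. The replicate block gave 1904 genes for IKDC and 2304 for NK against CDC and changed no call of a member. The additive model gave 1897 and 2404 genes and 88 genes for its single organ term. For the organ counts, which were 0 in IKDC, 0 in NK and 3 in CDC, a common 75th percentile gave 5 in CDC, an offset of 16 gave 31 in IKDC and 1 in CDC, an offset of 1 gave 13 in CDC, no filter gave 1 in NK and 0 in CDC, the 60th percentile filter gave 22, 3 and 10, the mean of probe sets gave 18 in IKDC and 8 in CDC, every probe set alone gave 1 in CDC and no trend gave 0 in CDC. The cause was not tested.

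The sign turned only in differences that were not called. On the deposited scale Klf2 between IKDC and CDC was -0.39, S1pr1 between IKDC and NK 0.028, S1pr1 between organs in IKDC 0.071 and S1pr4 between organs in NK -0.055, and the organ difference of Klf2 in IKDC minus NK was 0.34 and that of Cd69 -0.12 in IKDC minus CDC and -0.11 in NK minus CDC. With a common 75th percentile the first was -0.42, S1pr4 between organs was -0.078 in IKDC and -0.19 in NK, and the organ difference was 0.37 for Klf2 in IKDC minus NK and 0.012, -0.16 and -0.17 for Cd69 in IKDC minus NK, IKDC minus CDC and NK minus CDC. The additive organ term was 0.24 for S1pr1 and 0.32 for S1pr5. Leaving out a spleen array gave ranges of -1.07 to 1.08 for Klf2 between IKDC and CDC. Between IKDC and NK they were -0.31 to 0.21 for S1pr1, -2.35 to 0.29 for S1pr5, -1.76 to 0.39 for Klf2 and -0.64 to 0.076 for Cd69. Between organs in IKDC they were -0.36 to 0.17 for S1pr1, -0.57 to 0.75 for S1pr4, -1.82 to 0.82 for S1pr5 and -1.84 to 0.31 for Klf2. In NK they were -0.31 to 0.41 for S1pr4 and -1.05 to 0.65 for S1pr5, and in CDC -0.036 to 0.23 for S1pr1 and -0.023 to 0.67 for S1pr4. The organ difference of IKDC minus NK ranged from -0.63 to 0.70 for S1pr4, -1.62 to 1.02 for S1pr5, -1.21 to 0.94 for Klf2 and -0.41 to 0.31 for Cd69. That of IKDC minus CDC ranged from -0.45 to 0.071 for S1pr1, -0.90 to 0.43 for S1pr4 and -0.51 to 0.89 for Cd69, and that of NK minus CDC from -0.63 to 0.086 for S1pr4 and -0.46 to 0.94 for Cd69.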

Other observations

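Cxcr4 and Rsad2 were chosen after their values were seen, and are given with no test. Cxcr4, the receptor that retains cells in bone marrow, was at 9.65 and 9.45 on IKDC and NK spleen arrays 2 and at 7.52 and 7.86 on IKDC and NK spleen arrays 1, while CDC spleen arrays 2 and 1 were at 6.96 and 7.01. Rsad2, an interferon-induced gene, was at 11.13 and 11.22 on IKDC and NK spleen arrays 2, against 7.66 and 7.15 on IKDC and NK spleen arrays 1, and at 9.80 and 8.71 on CDC spleen arrays 2 and 1.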
